A study of Mus musculus with 12 samples.

Results

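The genes described here encode the cytosolic ribosomal proteins, the protein part of the ribosomes that read messenger RNA in the cytoplasm. Members were taken by name: a gene symbol starting with Rpl or Rps and a digit, or Rplp0, Rplp1, Rplp2 or Rpsa, with S6 kinase genes and names marked as pseudogenes, related sequences or antisense left out. Of 87 names that fit, 85 were above 0 FPKM (sequenced fragments scaled to transcript length and to the mapped fragments of the library) in all 12 libraries and were kept, 50 named for the large subunit and 35 for the small subunit, out of 23991 gene names. Detection in every library was the only measured value used to choose them. Just inside that limit was Rpl39l, with a lowest value of 0.0575 FPKM, and just outside were Rpl3l, above 0 in 1 library at 0.0426 FPKM, and Rpl10l, listed at 0 in all 12. Some names are not subunits themselves or are copies: Rps19bp1 encodes a binding protein of Rps19, and Rpl22l1, Rpl36al, Rpl39l, Rpl7l1, Rps27l, Rps4l and Rps27rt are named as paralogs or a retrotransposed copy.

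The libraries came from CD4+ T cells, the helper class of T lymphocytes, of male C57BL/6 mice aged 8 to 10 weeks, enriched by magnetic negative selection from spleen or lymph node. Adcy10-/- cells, which carry a knockout of the gene for soluble adenylyl cyclase, were cultured in baseline medium with polarizing cytokines (3 libraries) or in baseline medium (3 libraries), and wild-type (WT) cells were cultured in the same media (3 libraries each). All were collected after 18 hours on plate-bound anti-CD3 antibody (10 µg/mL). Other additions named in the labels are IL-6 at 25 ng/mL, both IL-23 and IL-1β at 20 ng/mL, anti-CD28 at 2 µg/mL, and IL-4 and interferon-γ antibodies at 1 µg/mL apiece, without saying which medium held which. The question was how the ribosomal protein genes differed between the 4 groups and between the subunits. Nothing in the labels says that libraries of a group came from separate animals, so p-values measure only the spread between these libraries, which may be technical.

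Every one of the 12 libraries, WT included, listed Adcy10 at 0 FPKM, so its level did not check the genotype labels. The defining markers of CD4+ T cells were present: the 9 listed genes summed to 1665 to 2109 FPKM per library. Other cell types were low but not absent, with 6 B cell genes at 1.88 to 49.1 FPKM in sum, 6 macrophage genes at 15.2 to 103 FPKM and 4 red cell genes at 0.443 to 131 FPKM. Libraries summed to 547870 to 594750 FPKM, and from the step that 1 fragment makes in low values their depth stood at 0.73 to 1.02 times that of WT baseline replicate 1; the absolute depth is not known. In bulk RNA, fewer cells of a type and less RNA per cell cannot be told apart.

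A ribosome joins a small subunit, which holds the messenger RNA and pairs codons with transfer RNA, to a large subunit, which forms the peptide bonds, and most of their proteins are present in a single copy per particle. Cells therefore need these proteins in nearly equal amounts, and excess unassembled protein is degraded. Their messenger RNAs carry a terminal oligopyrimidine (TOP) tract, a C followed by a run of pyrimidines at the 5′ end, through which mTOR signalling controls their translation; T cells that are activated build many new ribosomes as they grow.

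Ribosomal protein genes were among the most abundant transcripts of these cells. Of the 100 genes with the highest mean FPKM, 67 were members, 37 of the large and 30 of the small subunit. Over 12 libraries the median member had a mean level of 1975 FPKM, and 66 of 85 members reached 1000 FPKM. Large-subunit names had a median level of 1740 FPKM and small-subunit names one of 2380 FPKM, both per length of transcript.

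The highest member was Rpl41, a very short basic protein of the large subunit. Rpl41 had 5974, 5697 and 5565 FPKM in Adcy10-/- cells with cytokines and 6031, 5642 and 5745 FPKM in baseline medium. In WT cells, Rpl41 had 5873, 6598 and 5545 FPKM with cytokines and 5634, 5331 and 5327 FPKM in baseline medium. Rplp1, an acidic protein of the stalk that recruits elongation factors, came second. With cytokines, Rplp1 measured 5704, 5237 and 4893 FPKM in Adcy10-/- cells and 5533, 5992 and 4980 FPKM in WT cells. In baseline medium, Rplp1 measured 5617, 5071 and 4961 FPKM in Adcy10-/- cells and 5287, 4965 and 4649 FPKM in WT cells. Rps27rt, named as a retrotransposed copy of Rps27, was the third highest. For Rps27rt the libraries of Adcy10-/- cells gave 4995, 4278 and 4313 FPKM with cytokines and 4905, 4100 and 4118 FPKM in baseline medium. For Rps27rt the WT libraries gave 5060, 4948 and 4431 FPKM with cytokines and 4835, 4201 and 4081 FPKM in baseline medium. Group pairs overlapped in these 3 genes, except that all Adcy10-/- baseline libraries of Rpl41 lay above the WT baseline libraries.

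At the other end, Rpl39l, the paralog of a protein that lines the exit tunnel, was the lowest. Rpl39l stood at 1.04, 0.0593 and 2.45 FPKM in Adcy10-/- cells with cytokines, against 0.986, 0.0575 and 3.08 FPKM in baseline medium. Rpl39l in WT cells stood at 1.23, 0.382 and 1.82 FPKM with cytokines, against 1.29, 0.0615 and 2.04 FPKM in baseline medium. Its replicate 3 was the highest and its replicate 2 the lowest library in each of the 4 groups. Rps4l, a paralog of Rps4x, was the second lowest. Rps4l had 2.92, 2.45 and 3.69 FPKM in Adcy10-/- cells with cytokines and 3.40, 1.85 and 4.59 FPKM in baseline medium. In WT cells, Rps4l had 3.49, 3.93 and 4.10 FPKM with cytokines and 2.37, 3.05 and 3.44 FPKM in baseline medium. Rps27 itself was the third lowest. With cytokines, Rps27 measured 6.49, 9.07 and 6.55 FPKM in Adcy10-/- cells and 6.52, 7.02 and 5.82 FPKM in WT cells. In baseline medium, Rps27 measured 8.96, 7.63 and 7.02 FPKM in Adcy10-/- cells and 6.97, 9.54 and 6.72 FPKM in WT cells. These 3 genes also had the largest SD of log2(FPKM + 1) over 12 libraries, 0.68 for Rpl39l, 0.28 for Rps4l and 0.20 for Rps27. All 82 members at or above 50 FPKM had less than a 1.5-fold range between their highest and lowest library, against 90.2% of 235 other genes with a mean of 250 FPKM or more.

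**Figure D1:**
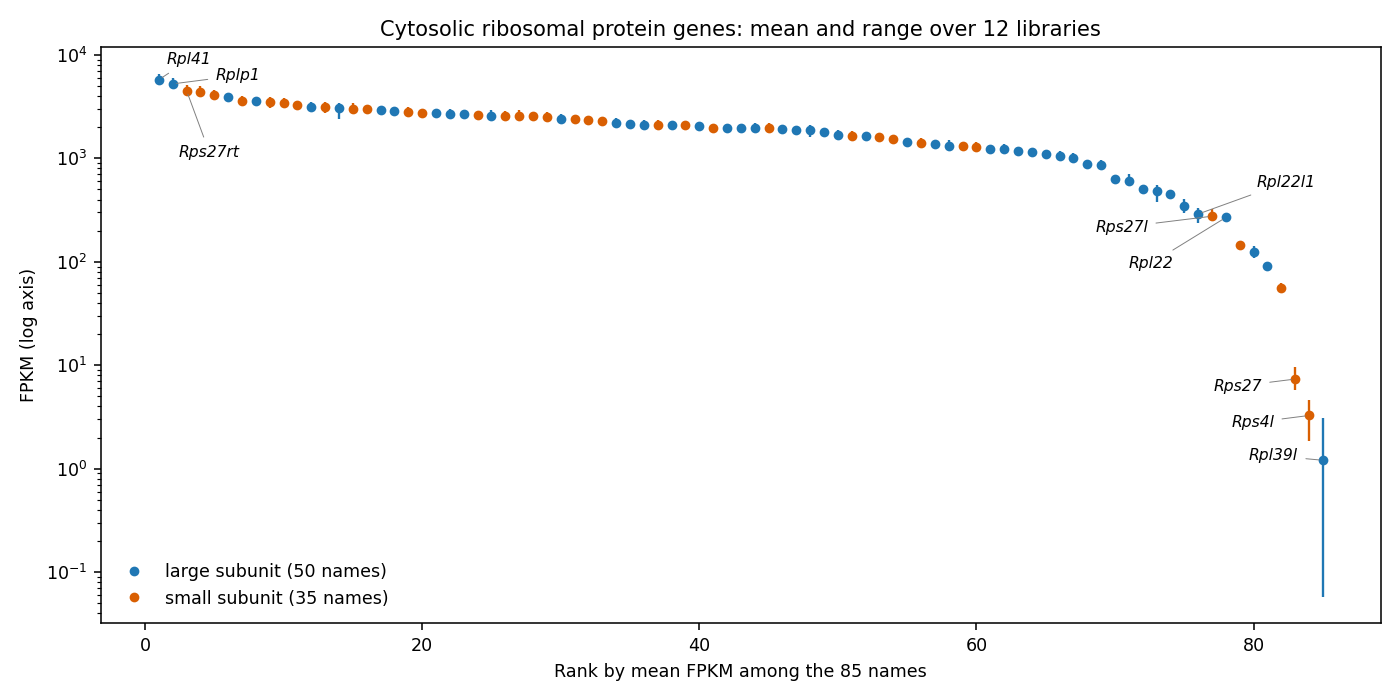
Mean FPKM (points) and the range over 12 libraries (vertical lines) of 85 ribosomal protein genes, ordered by mean, on a log axis, with large-subunit names in blue and small-subunit names in orange. Most members lie above 1000 FPKM with short ranges, and Rps27, Rps4l and Rpl39l lie under 10 FPKM.

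The levels of Rps27 and Rps27rt are shown with their sequences because they bear on what the files count. In the GENCODE M21 transcripts, of 345 bases for Rps27 and 374 for Rps27rt, all 341 aligned bases were identical. Reads that lie within those bases cannot be divided between the genes by sequence, and Rps27rt took 99.8% of their summed level. The values of both genes are therefore uncertain as single genes. Their sum, 4529 FPKM, also depends on that division, since each gene's fragments are scaled to its own transcript length. The starts of both genes (GRCm38.p6, RefSeq; 15 bases before the start and 25 from it, gene strand, 5′ to 3′) are printed with 4 other members, and capitals mark the letters CTTTCC, a short form of the TOP tract. They lie at chr3:90213624-90213663 (minus strand) for Rps27, chr9:114982715-114982754 (minus) for Rps27rt, chr7:4792950-4792989 (plus) for Rpl28, chr11:114668565-114668604 (plus) for Rpl38, chr17:27635220-27635259 (minus) for Rps10 and chr5:115559452-115559491 (plus) for Rplp0.
Rps27: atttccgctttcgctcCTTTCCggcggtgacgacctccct
Rps27rt: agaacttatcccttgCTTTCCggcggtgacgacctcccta
Rpl28: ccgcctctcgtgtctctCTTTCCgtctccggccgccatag
Rpl38: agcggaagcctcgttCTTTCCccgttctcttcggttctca
Rps10: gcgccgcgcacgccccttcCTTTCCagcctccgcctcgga
Rplp0: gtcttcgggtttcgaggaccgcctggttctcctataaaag
The longest run shared by Rps27 and Rps27rt within 65 bases around their starts was 38 bases and held the capitals in both. Rplp0 is shown as a member without these letters in the printed bases, though it held them elsewhere within 250 bases before and 50 from its start.

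A promoter row was found for 64 of 85 members in a RefSeq table of 27025 genes. CTTTCC on the gene strand within 20 bases either side of the start stood in 11 of these 64 members (17.2%), 8 of the large and 3 of the small subunit, against 1.90% of all genes in the table. On the other strand it stood in 0 of 64 members, against 1.64% of all genes. CTTCCG, a core of sites for the ETS family of transcription factors, stood on either strand of the 300-base window in 44 of 64 members (68.8%), against 17.2% of all genes. CTTTCC and CTTCCG share the letters CTT and can overlap, and both were chosen from several short motifs after the counts were seen. A match is a description of letters, not of a site in use.

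Pseudogene copies touched other members as well. Rpl34, a large-subunit protein, averaged 344 FPKM while its named copy Rpl34-ps1, 99.4% identical over 354 aligned bases, averaged 2140 FPKM. For Rpl14 the gene stood at 1102 FPKM and Rpl14-ps1 at 1027 FPKM, and for Rpl31 the gene stood at 600 FPKM and Rpl31-ps12 at 635 FPKM. Rps15a averaged 147 FPKM, below its copies Rps15a-ps4 at 174 FPKM and Rps15a-ps6 at 186 FPKM. Levels of these genes are uncertain, since the counting could split reads between gene and copy.

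Together the members took between 28.1% and 31.0% of a library's FPKM. In Adcy10-/- cells the share with cytokines was 30.6%, 29.6% and 28.8% in replicates 1, 2 and 3, against 30.9%, 29.0% and 28.4% in baseline medium. In WT cells it was 30.4%, 31.0% and 29.0% with cytokines, against 30.4%, 29.0% and 28.1% in baseline medium. The 4 groups overlapped, with means of 29.7 ± 0.909, 29.5 ± 1.29, 30.1 ± 1.04 and 29.2 ± 1.19% for Adcy10-/- with cytokines, Adcy10-/- baseline, WT with cytokines and WT baseline (SD, n = 3 each). Much of that spread followed the replicate number, and between WT libraries of the same number the share was higher with cytokines in 3 of 3 pairs, though replicate 1 stood at 30.43% in both media. The shares were not tested. Large-subunit names took 14.96% to 16.4% and small-subunit names 13.1% to 14.7%. The mean log2(FPKM + 1) of large-subunit names was below that of small-subunit names in every library, by a difference of -0.22 to -0.15, and the group means of that difference lay between -0.20 and -0.19. With pseudogene and retrogene copies summed into their genes, a setting chosen after seeing the data, the mean difference was -0.36.

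**Figure D2:**
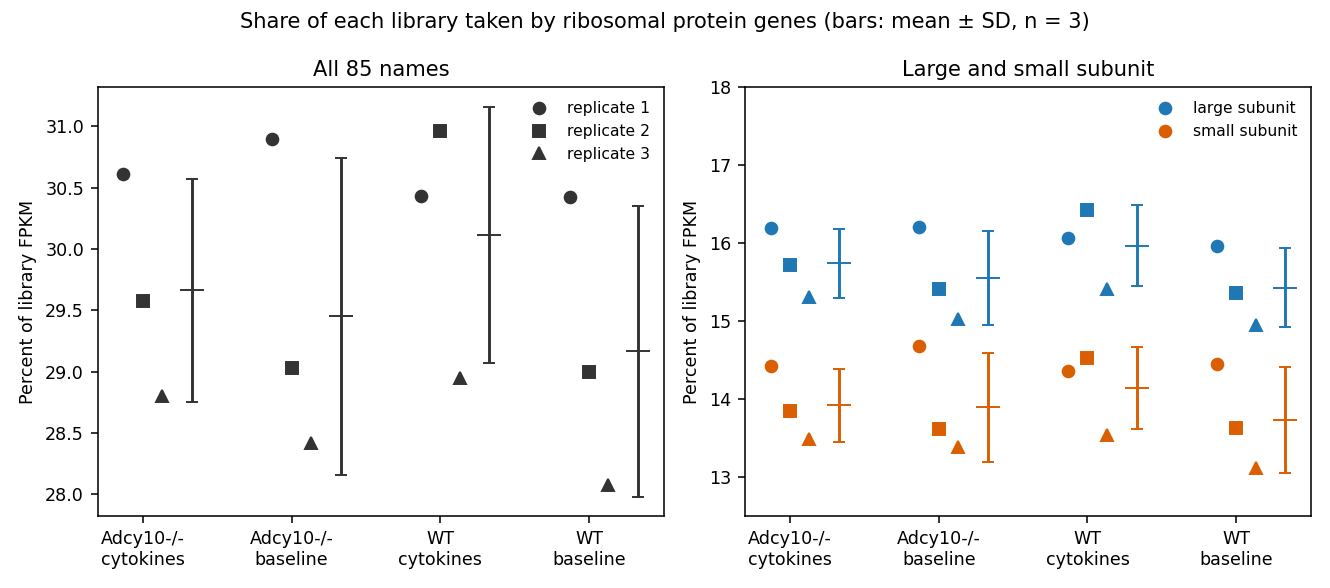
Percent of each library's summed FPKM taken by all 85 names (left) and by large-subunit and small-subunit names (right), with 1 point per library, the marker shape giving the replicate number, and bars for mean ± SD of 3 libraries. The groups overlap, and replicate 3 is the lowest library in each of them.

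Between the media, no ribosomal protein gene passed the test in Adcy10-/- cells. None of the 85 members passed an adjusted p of 0.05 for cytokines minus baseline (limma with Benjamini-Hochberg adjustment over 10126 genes), while 4.27% of all genes tested did, and 0 members had an unadjusted p under 0.05. This fit leaves the replicate number out. With the number in the model 0 members passed as well, where 10.7% of all genes did. The median log2 difference was -0.003 over all members, 0.0003 for the large and -0.004 for the small subunit, beside -0.020 over all genes. The difference was above 0 in 40 of 85 members, against 42.4% of all genes. Over the 82 members at or above 50 FPKM the differences lay between -0.13 and 0.12, and the widest 95% intervals ended at -0.31 and 0.32.

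The members furthest below 0 in that comparison were Rpl34 and Rps20. For Rpl34 the libraries of Adcy10-/- cells gave 349, 342 and 322 FPKM with cytokines and 407, 335 and 367 FPKM in baseline medium. For Rpl34 the WT libraries gave 318, 356 and 298 FPKM with cytokines and 337, 331 and 371 FPKM in baseline medium. Its log2 difference was -0.13 (SE 0.082, adjusted p = 0.559), and the media overlapped. Rps20 stood at 3483, 3288 and 3050 FPKM in Adcy10-/- cells with cytokines, against 3902, 3502 and 3259 FPKM in baseline medium. Rps20 in WT cells stood at 3607, 3805 and 3249 FPKM with cytokines, against 3788, 3531 and 3178 FPKM in baseline medium. Rps20, a protein of the head of the small subunit, differed by -0.12 (SE 0.088, adjusted p = 0.634), and its media overlapped as well. With libraries scaled to the members' mean level and the replicate number in the model, a setting chosen after seeing the data, Rps20 fell by 0.11 (SE 0.022, adjusted p = 0.00946 by limma). That setting called 823 of 10141 genes and 1 member. Furthest above 0 were Rps27l at 0.12 (SE 0.077, adjusted p = 0.558) and Rpl24 at 0.070 (SE 0.054, adjusted p = 0.646). Rpl36al, a paralog of Rpl36a, was the only member whose media did not overlap, with 839 to 863 FPKM with cytokines and 866 to 893 FPKM in baseline medium, where 21.6% of all genes did not overlap.

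In WT cells most ribosomal protein genes stood slightly higher with cytokines than in baseline medium, and none passed the test. The log2 difference was above 0 in 81 of 85 members, against 45.9% of all genes, with a median of 0.083 for all members, 0.084 for the large and 0.083 for the small subunit, beside -0.013 over all genes. Among 235 other genes with a mean of 250 FPKM or more the median was 0.034, and 63.8% were above 0. Macrophage and neutrophil marker genes were summed beside this comparison, in WT replicates 1, 2 and 3. The 6 macrophage genes summed to 103, 29.2 and 44.0 FPKM with cytokines, against 65.4, 20.1 and 24.4 FPKM in baseline medium. The 4 neutrophil genes summed to 10.7, 11.9 and 60.0 FPKM with cytokines, against 3.03, 4.64 and 18.5 FPKM in baseline medium. None of the tested genes of both lists passed. In Adcy10-/- cells the median log2 difference with cytokines was 0.34 for macrophage and 0.78 for neutrophil genes (2 tested each), beside -0.003 for members. For Adcy10-/- minus WT in baseline medium the medians were -0.51 and -0.76, beside 0.020 for members. Natural killer genes in WT cells summed to 23.9 to 27.0 FPKM with cytokines and 21.0 to 21.5 in baseline medium, without overlap. The part of any of these cells in the ribosomal protein difference was not tested. Of 85 members 0 passed an adjusted p of 0.05, against 4.93% of all genes, and 6 had an unadjusted p under 0.05 (Rpl13a, Rpl24, Rpl31, Rpl37, Rpl38 and Rpl41). Groups did not overlap in 8 members that were higher (Rpl22, Rpl23, Rpl24, Rpl36a, Rpl37, Rpl7a, Rps2 and Rps4l) and in 1 that was lower (Rpl22l1), where 10.5% of all genes were higher and 10.3% lower without overlap. Over the 82 members at or above 50 FPKM the differences lay between -0.15 and 0.15, and the widest 95% intervals ended at -0.33 and 0.35.

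The WT difference varied between replicates and was largest for 1 library. Between libraries of the same number the median member difference was -0.001 for replicate 1, 0.20 for replicate 2 and 0.051 for replicate 3, and it was above 0 in 40, 83 and 68 of 85 members. Without WT cytokine replicate 2, which had both the highest FPKM total and the highest share in members, the median was 0.041 and 73 members were above 0. With every library rescaled to the same FPKM total the median was 0.043 and 73 members were above 0, and after quantile normalization it was 0.005 and 51 were. Quantile normalization gives all libraries the same set of values, so it can also remove a shift shared by the most abundant genes.

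Rpl24, a large-subunit protein whose mutation gives the belly spot and tail phenotype in mice, had the smallest p. Rpl24 had 1038, 1028 and 972 FPKM in Adcy10-/- cells with cytokines and 1005, 947 and 942 FPKM in baseline medium. In WT cells, Rpl24 had 1046, 1116 and 1025 FPKM with cytokines and 1013, 915 and 945 FPKM in baseline medium. All WT cytokine libraries were above the WT baseline libraries, with a log2 difference of 0.15 (SE 0.054, 95% interval 0.03 to 0.27, adjusted p = 0.148 by limma). With the replicate number in the model, Rpl24 rose by 0.15 (SE 0.044, adjusted p = 0.0465 by limma). It was the 1 member of 85 called in that fit, where 14.8% of all genes were called. Rpl38, the large-subunit protein lost in Tail short mice, was close behind. With cytokines, Rpl38 measured 2398, 2471 and 2341 FPKM in Adcy10-/- cells and 2560, 2682 and 2349 FPKM in WT cells. In baseline medium, Rpl38 measured 2461, 2301 and 2201 FPKM in Adcy10-/- cells and 2427, 2167 and 2248 FPKM in WT cells. It differed by 0.15 (SE 0.064, adjusted p = 0.230), and replicate 3 with cytokines lay inside the baseline range. Rps4l differed most, by 0.30 (SE 0.21, adjusted p = 0.493), at levels of 1.85 to 4.59 FPKM. Rps27 was furthest below 0 at -0.22 (SE 0.14, adjusted p = 0.464), and its sum with Rps27rt stood at 0.14, in the other direction.

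Rpl22l1 was the 1 abundant member that stood lower with cytokines in WT cells without overlap. It encodes the paralog of Rpl22, an RNA-binding large-subunit protein needed for the development of αβ T cells, and in mouse cells without Rpl22 the level of Rpl22l1 is known to rise. For Rpl22l1 the libraries of Adcy10-/- cells gave 281, 293 and 239 FPKM with cytokines and 324, 279 and 273 FPKM in baseline medium. For Rpl22l1 the WT libraries gave 295, 279 and 274 FPKM with cytokines and 334, 299 and 305 FPKM in baseline medium. Its log2 difference was -0.15 in WT cells (SE 0.086, adjusted p = 0.405) and -0.11 in Adcy10-/- cells (SE 0.086, adjusted p = 0.661). Rpl22 stood at 268, 285 and 259 FPKM in Adcy10-/- cells with cytokines, against 269, 261 and 252 FPKM in baseline medium. Rpl22 in WT cells stood at 272, 297 and 273 FPKM with cytokines, against 268, 259 and 258 FPKM in baseline medium. Rpl22 differed the other way in WT cells, with cytokine libraries above baseline libraries.

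The ratio of Rpl22l1 to Rpl22 within a library does not depend on how libraries are scaled. In Adcy10-/- cells it was 1.05, 1.03 and 0.922 with cytokines, against 1.21, 1.07 and 1.08 in baseline medium. In WT cells it was 1.09, 0.939 and 1.00 with cytokines, against 1.25, 1.15 and 1.19 in baseline medium. The cytokine libraries lay below the baseline libraries in both genotypes, 0.893-fold and 0.845-fold, each with an exact permutation p of 0.1 (two-sided), the smallest that 3 against 3 libraries allow. Between genotypes the ratio overlapped in both media. Ratios of all 6 paralog pairs were compared in 4 comparisons each, a step chosen after the values of Rpl22l1 were seen, and these 2 of 24 comparisons were the only ones without overlap (Benjamini-Hochberg adjusted exact p of 0.9 for both). With the replicate number in the model and libraries scaled to the members' mean level, Rpl22l1 fell by 0.22 in WT cells with cytokines (SE 0.054, adjusted p = 0.0224 by limma). That setting was chosen after seeing the data. It called 1438 of 10141 genes and 1 member, and the median difference over all genes there was -0.081, where the main fit gave -0.013.

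**Figure D3:**
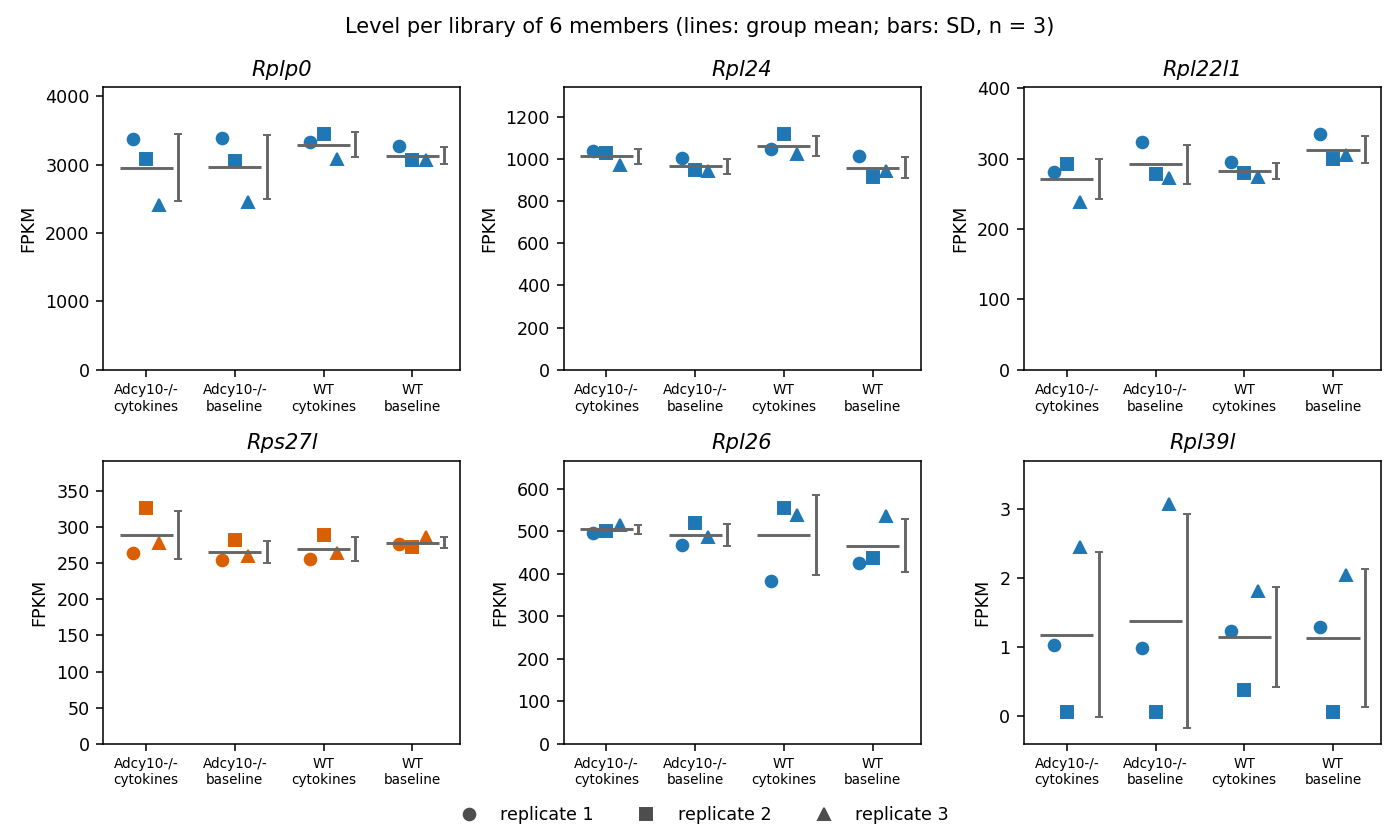
FPKM per library of Rplp0, Rpl24, Rpl22l1, Rps27l, Rpl26 and Rpl39l, by group, with marker shapes for the replicate number, lines for group means and bars for SD (n = 3). Rpl24 and Rpl22l1 separate the media in WT cells, Rplp0 is lowest in both Adcy10-/- libraries numbered 3, and Rpl39l follows the replicate number.

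Between genotypes in baseline medium, ribosomal protein genes differed by small amounts that did not pass the test. The median log2 difference, Adcy10-/- minus WT, was 0.020 for all members, 0.015 for the large and 0.026 for the small subunit, beside -0.004 over all genes, and 62 of 85 members were above 0, against 47.5% of all genes. Without Adcy10-/- baseline replicate 1 the median was -0.020. None of 85 members passed the test, as none of all genes did (0.00%), and 0 members had an unadjusted p under 0.05, against 118 of all genes. Only Rpl41 had groups that did not overlap, where 4.99% of all genes did: its log2 difference was 0.096 (SE 0.063, adjusted p = 1.00). Among the 82 members at or above 50 FPKM, differences lay between -0.10 and 0.10, and the widest 95% intervals ended at -0.37 and 0.36.

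The extremes of that comparison were Rpl28 and Rpl13 above 0 and Rpl22l1 and Rplp0 below it. Rpl28 had 2271, 2126 and 1963 FPKM in Adcy10-/- cells with cytokines and 2367, 2163 and 1979 FPKM in baseline medium. In WT cells, Rpl28 had 2227, 2359 and 1936 FPKM with cytokines and 2166, 2036 and 1864 FPKM in baseline medium. Rpl28 differed by 0.100 (SE 0.091, adjusted p = 1.00). With cytokines, Rpl13 measured 2084, 2009 and 1873 FPKM in Adcy10-/- cells and 2067, 2079 and 1886 FPKM in WT cells. In baseline medium, Rpl13 measured 2141, 1987 and 1921 FPKM in Adcy10-/- cells and 1997, 1884 and 1768 FPKM in WT cells. Rpl13 differed by 0.099 (SE 0.065, adjusted p = 1.00). Both are large-subunit proteins, and in both the genotypes overlapped. Rpl22l1 differed by -0.10 (SE 0.086) and Rplp0 by -0.091 (SE 0.13), each with an adjusted p of 1.00.

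With cytokines, Adcy10-/- libraries stood slightly below WT libraries across nearly the whole set, and again no member passed. The median log2 difference was -0.063 for all members, -0.062 for the large and -0.064 for the small subunit, beside -0.012 over all genes. It was above 0 in 4 of 85 members, against 43.0% of all genes. The 235 other genes of 250 FPKM or more lay to the same side, with a median of -0.048 and 9.79% above 0. Macrophage genes summed to 21.4 to 28.0 FPKM in Adcy10-/- cells with cytokines, all below the 29.2 to 103 FPKM of WT cells with cytokines. Neutrophil genes summed to 0.757 to 15.4 FPKM in Adcy10-/- cells with cytokines, against 10.7 to 60.0 FPKM in WT cells with cytokines. The part of these cells in the difference was not tested. The call counts were 0 of 85 members and 0.00% of all genes, and 0 members had an unadjusted p under 0.05, against 202 of all genes. Groups did not overlap in 3 members, Rpl37 and Rps23 among them, all lower in Adcy10-/-, where 3.40% of all genes were lower without overlap. This comparison shares the WT cytokine libraries with the one before it on WT cells: between libraries of the same number the medians were 0.003, -0.14 and -0.053, and without WT cytokine replicate 2 the median over all members was -0.019, with 20 members above 0. Among members at or above 50 FPKM the widest 95% intervals ended at -0.45 and 0.34. With libraries rescaled to the same FPKM total the median was -0.019 with 23 members above 0. After quantile normalization, which can remove a shared shift, the median was 0.0005 and 43 members were above 0.

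Among members at or above 50 FPKM, Rplp0 had the largest difference there, with its lowest library in Adcy10-/- cytokine replicate 3. Rplp0 carries the stalk on the large subunit and binds the Rplp1 and Rplp2 dimers. For Rplp0 the libraries of Adcy10-/- cells gave 3374, 3088 and 2408 FPKM with cytokines and 3387, 3049 and 2460 FPKM in baseline medium. For Rplp0 the WT libraries gave 3335, 3442 and 3086 FPKM with cytokines and 3274, 3061 and 3060 FPKM in baseline medium. The libraries of Adcy10-/- cells numbered 3 were the lowest of all 12 in both media, while the other 2 Adcy10-/- libraries of each medium overlapped the WT libraries. The log2 difference with cytokines was -0.17 (SE 0.13, adjusted p = 1.00). In baseline medium its sign turned to 0.038 without Adcy10-/- baseline replicate 3. Rplp2 stood at 3040, 2863 and 2715 FPKM in Adcy10-/- cells with cytokines, against 3109, 2820 and 2693 FPKM in baseline medium. Rplp2 in WT cells stood at 3129, 3239 and 2818 FPKM with cytokines, against 3028, 2822 and 2667 FPKM in baseline medium. Rplp2 overlapped between all groups, and its values carry the limit that a named copy, Rplp2-ps1, stood at 491 FPKM.

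Rps4l, at -0.28 (SE 0.21), was furthest below 0 with cytokines, and Rps27 at 0.16 (SE 0.14) and Rps27l at 0.096 (SE 0.077) were furthest above it, all with an adjusted p of 1.00. The sum of Rps27 and Rps27rt differed by -0.089, in the other direction from Rps27 alone. Rps27l, a paralog of Rps27 and a target of p53, stood apart in 1 library. Rps27l had 264, 327 and 278 FPKM in Adcy10-/- cells with cytokines and 254, 282 and 260.3 FPKM in baseline medium. In WT cells, Rps27l had 256, 289 and 265 FPKM with cytokines and 277, 272 and 287 FPKM in baseline medium. Its highest value was Adcy10-/- cytokine replicate 2, and the other 11 libraries lay between 254 and 289 FPKM.

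The cytokine effects of the genotypes were also set against each other directly. This interaction, with the WT effect subtracted from the Adcy10-/- effect, had a median of -0.083 over members, -0.075 for the large and -0.087 for the small subunit, beside -0.009 over all genes, and was above 0 in 4 of 85 members, against 45.8% of all genes. For the 235 other abundant genes the median was -0.059 and 14.9% were above 0. None of 85 members passed, as none of all genes did (0.00%), with 0 members and 112 of all genes at an unadjusted p under 0.05. Furthest below 0 were Rps4l at -0.35 (SE 0.29) and Rpl41 at -0.16 (SE 0.090), and furthest above were Rps27l at 0.17 (SE 0.11) and Rps27 at 0.13 (SE 0.20), each with an adjusted p of 1.00. The median was -0.040 without WT cytokine replicate 2 and -0.005 after quantile normalization.

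**Figure D4:**
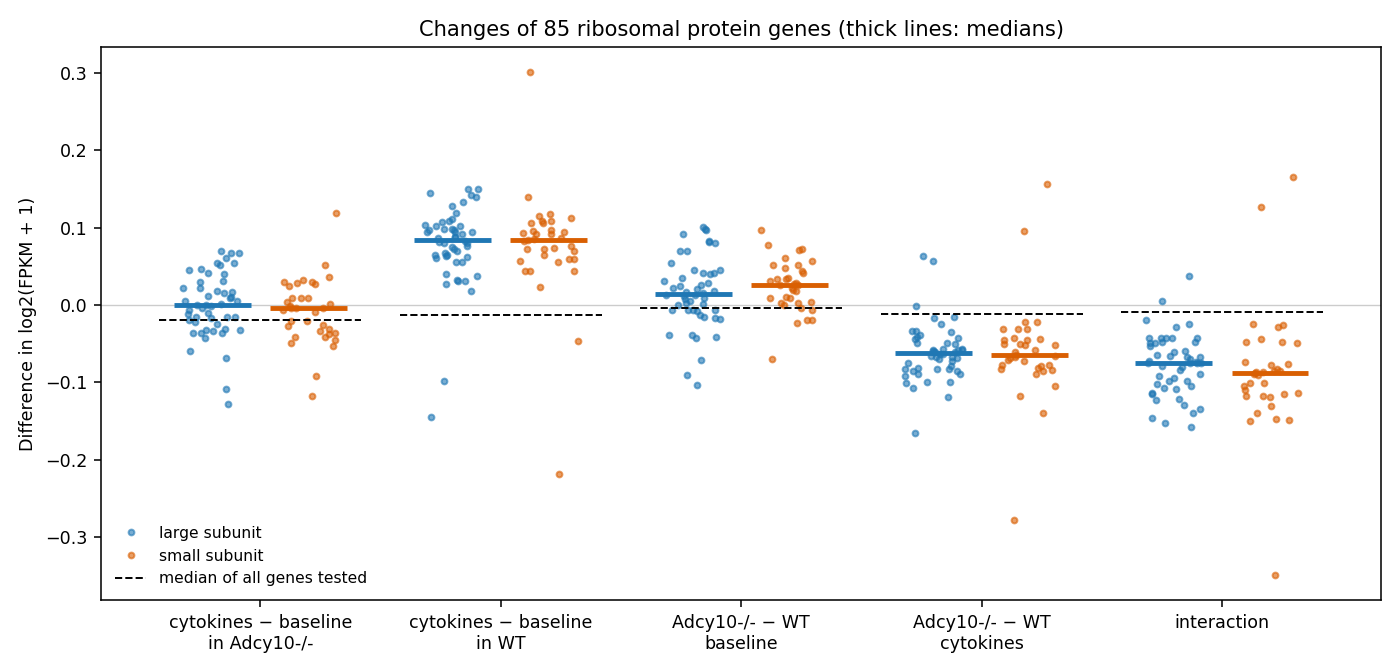
Difference in log2(FPKM + 1) of each of 85 ribosomal protein genes in 4 comparisons and the interaction, with large-subunit names in blue, small-subunit names in orange, thick lines for their medians and dashed lines for the median of all genes tested. The subunits lie at nearly the same height in every comparison, above the all-gene median in WT cells with cytokines and below it for Adcy10-/- against WT with cytokines.

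The large and small subunits were also compared by their medians. In the 5 contrasts the median of the large subunit minus that of the small subunit lay between -0.011 and 0.013, and between -0.022 and 0.034 over all settings tried. The mean large minus small level had a replicate SD of 0.0240, which 0.034, the interaction without WT cytokine replicate 3, exceeds. These differences were not tested. In no contrast and under no setting tried did a member of either subunit pass the test without the replicate number in the model.

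Members with known roles outside bulk synthesis mostly overlapped between the groups as well. Rpl5 and Rpl11 form a complex with a ribosomal RNA and, when free, bind Mdm2, the inhibitor of p53. With cytokines, Rpl5 measured 1294, 1269 and 1164 FPKM in Adcy10-/- cells and 1238, 1364 and 1278 FPKM in WT cells. In baseline medium, Rpl5 measured 1259, 1145 and 1152 FPKM in Adcy10-/- cells and 1262, 1179 and 1211 FPKM in WT cells. For Rpl11 the libraries of Adcy10-/- cells gave 1946, 1902 and 1807 FPKM with cytokines and 1920, 1864 and 1832 FPKM in baseline medium. For Rpl11 the WT libraries gave 1976, 2084 and 1937 FPKM with cytokines and 1982, 1835 and 1825 FPKM in baseline medium. In both genes the groups overlapped in each comparison of genotype or medium. All WT cytokine libraries of Rpl11 lay above the Adcy10-/- baseline libraries, a pair that differs in both and was not compared. Rpl10 joins late in the maturation of the large subunit near its catalytic centre, and Rpl10a forms the stalk near the exit of transfer RNA. Rpl10 stood at 1279, 1258 and 1148 FPKM in Adcy10-/- cells with cytokines, against 1343, 1195 and 1178 FPKM in baseline medium. Rpl10 in WT cells stood at 1295, 1315 and 1185 FPKM with cytokines, against 1329, 1181 and 1204 FPKM in baseline medium. Rpl10a had 1875, 1820 and 1706 FPKM in Adcy10-/- cells with cytokines and 1943, 1724 and 1737 FPKM in baseline medium. In WT cells, Rpl10a had 1871, 1958 and 1742 FPKM with cytokines and 1839, 1758 and 1741 FPKM in baseline medium. Rpl10 ranged over 12 libraries from 1148 to 1343 FPKM and Rpl10a from 1706 to 1958 FPKM, with overlapping groups. With cytokines, Rpl39 measured 1858, 1945 and 1676 FPKM in Adcy10-/- cells and 2023, 2080 and 1843 FPKM in WT cells. In baseline medium, Rpl39 measured 1918, 1788 and 1602 FPKM in Adcy10-/- cells and 2071, 1836 and 1675 FPKM in WT cells. Rpl39, which lines the exit tunnel, was lowest in replicate 3 of each group.

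On the small subunit, Rps6 is the substrate of the S6 kinases downstream of mTOR, and Rps19 is the gene most often mutated in human Diamond-Blackfan anaemia. For Rps6 the libraries of Adcy10-/- cells gave 1375, 1314 and 1229 FPKM with cytokines and 1407, 1242 and 1260 FPKM in baseline medium. For Rps6 the WT libraries gave 1381, 1426 and 1277 FPKM with cytokines and 1377, 1229 and 1228 FPKM in baseline medium. Rps19 stood at 1716, 1654 and 1584 FPKM in Adcy10-/- cells with cytokines, against 1774, 1590 and 1599 FPKM in baseline medium. Rps19 in WT cells stood at 1722, 1836 and 1586 FPKM with cytokines, against 1749, 1570 and 1530 FPKM in baseline medium. In both genes the 4 groups overlapped, and replicate 1 was above replicate 3 in each group. Rps3 sits at the entry of the messenger RNA channel. Rps3 had 1369, 1292 and 1218 FPKM in Adcy10-/- cells with cytokines and 1364, 1251 and 1240 FPKM in baseline medium. In WT cells, Rps3 had 1340, 1425 and 1255 FPKM with cytokines and 1337, 1226 and 1204 FPKM in baseline medium. Rps4x is encoded on the X chromosome. With cytokines, Rps4x measured 2644, 2638 and 2351 FPKM in Adcy10-/- cells and 2694, 2862 and 2522 FPKM in WT cells. In baseline medium, Rps4x measured 2758, 2401 and 2428 FPKM in Adcy10-/- cells and 2797, 2415 and 2365 FPKM in WT cells. Rpsa is also known as the laminin receptor precursor. For Rpsa the libraries of Adcy10-/- cells gave 2386, 2244 and 2099 FPKM with cytokines and 2489, 2216 and 2241 FPKM in baseline medium. For Rpsa the WT libraries gave 2300, 2521 and 2184 FPKM with cytokines and 2391, 2187 and 2142 FPKM in baseline medium. These 3 genes overlapped between the groups too, with 12 libraries at 1204 to 1425 FPKM for Rps3, 2351 to 2862 FPKM for Rps4x and 2099 to 2521 FPKM for Rpsa.

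Within groups, most members ranked the libraries in a similar order of replicate number. In Adcy10-/- cells replicate 1 was the highest of its group for 67 of 85 members with cytokines and for 78 in baseline medium, and replicate 3 was the lowest for 71 and 52. In WT cells replicate 2 was the highest for 79 members with cytokines and replicate 1 for 73 in baseline medium, and replicate 3 was the lowest for 69 and 51. The same library was the highest for 32.3% and 40.4% of 235 other genes with a mean of 250 FPKM or more in Adcy10-/- cells with cytokines and in baseline medium, and for 67.7% and 43.4% in WT cells. Residuals of members correlated between libraries of the same number and genotype with r of 0.563 to 0.958 (median 0.846, 6 pairs of libraries, across genes, which are not independent replicates), and residuals of all genes with r of 0.294 to 0.536 (median 0.449).

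Some cell type markers moved with the replicate number too, and others did not. The 6 B cell genes summed to 1.88 to 7.54 FPKM in libraries numbered 1, 22.5 to 49.1 in those numbered 2 and 26.8 to 34.3 in those numbered 3. The 4 red cell genes summed to 0.443 to 2.84 FPKM in libraries numbered 1 and 2 and 16.1 to 131 FPKM in those numbered 3. The 9 CD4+ T cell genes summed to 1968 to 2109 FPKM in libraries numbered 1, 1747 to 1916 in those numbered 2 and 1665 to 1824 in those numbered 3. The CD8+ T cell genes summed to 8.85 to 10.5 FPKM in libraries numbered 1, 11.5 to 14.7 in those numbered 2 and 8.43 to 13.8 in those numbered 3. The sums of natural killer, macrophage, neutrophil and dendritic cell genes overlapped between all numbers. The part of these cells in the order of ribosomal protein levels was not tested.

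**Figure D5:**
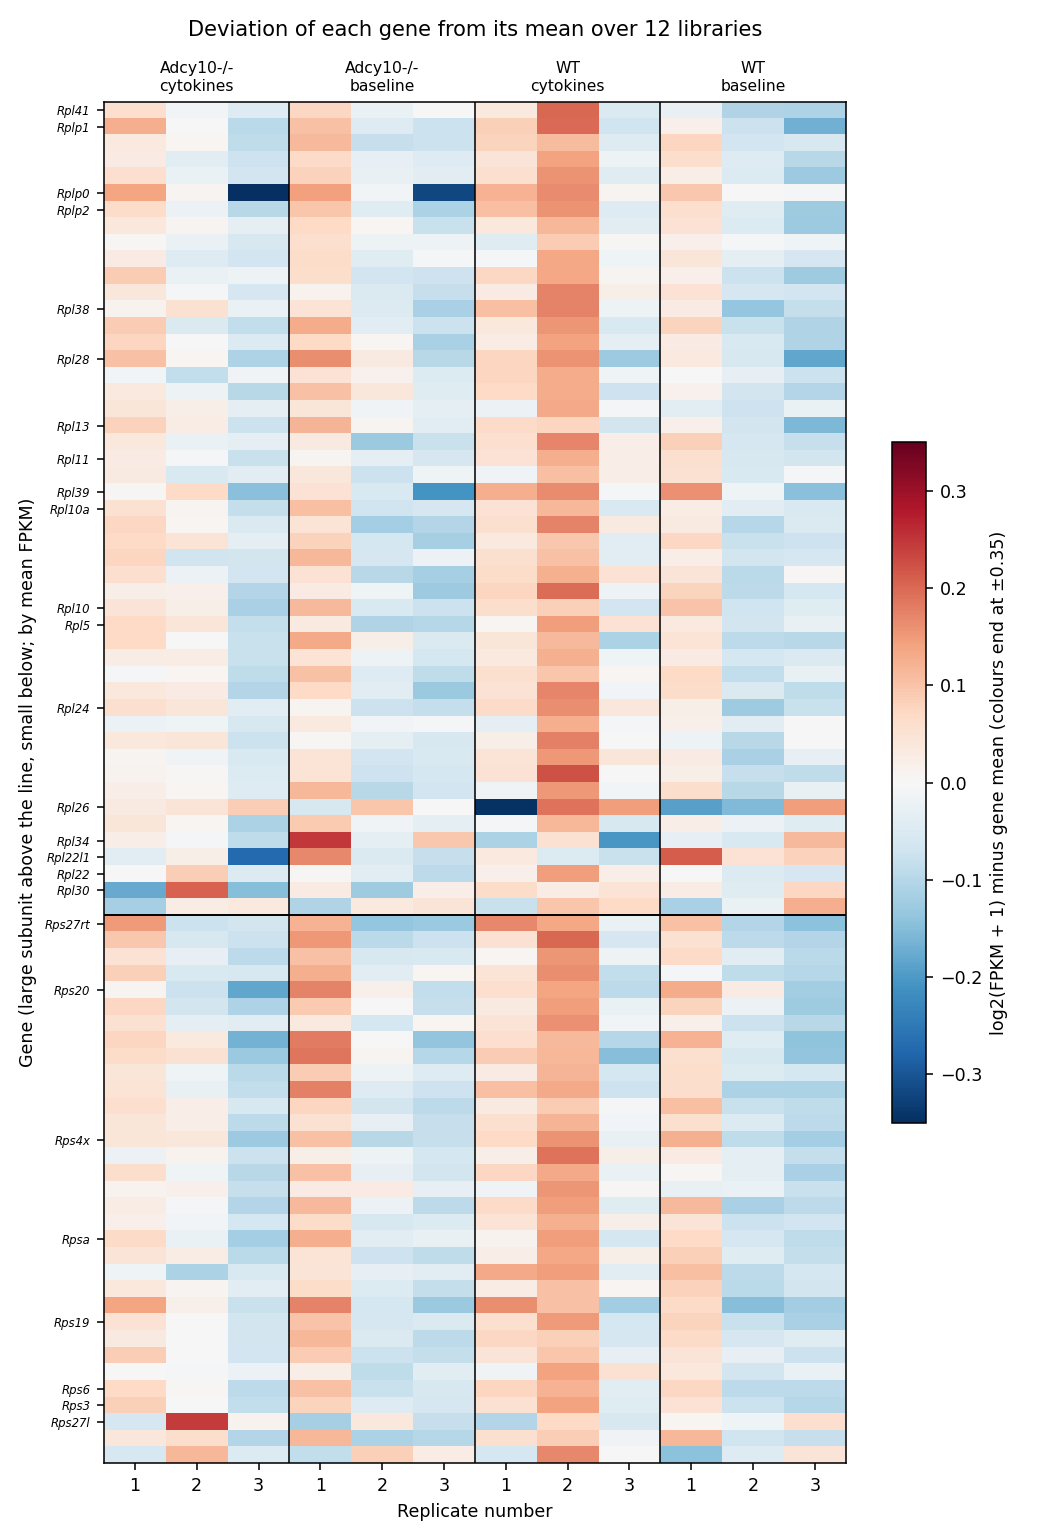
Deviation of log2(FPKM + 1) from the gene's mean over 12 libraries for the 82 members at or above 50 FPKM, large subunit above the line and small below, with columns for libraries by group and replicate and with the genes whose values are given labelled. WT cytokine replicate 2 and the replicate 1 columns are mostly red and the replicate 3 columns mostly blue, while Rplp0, Rpl26, Rpl34, Rpl22l1, Rpl30 and Rps27l break the pattern.

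Members varied little with each library's members' mean taken out, but also before that step. At or above 50 FPKM their median SD of log2(FPKM + 1) over 12 libraries was 0.079 before it. The count that follows therefore does not show how much variation the step removed. Of the 82 members at or above 50 FPKM, 77 never deviated by over 0.2 on the log2 scale in any library, and 9 of 984 values did. The exceptions, named after their values were seen, were Rpl22l1, Rpl26, Rpl30, Rplp0 and Rps27l. Rpl26 stood at 496, 502 and 516 FPKM in Adcy10-/- cells with cytokines, against 467, 519 and 486 FPKM in baseline medium. Rpl26 in WT cells stood at 382, 555 and 538 FPKM with cytokines, against 426, 436 and 537 FPKM in baseline medium. Rpl26, a large-subunit protein that in human cells binds p53 messenger RNA, was lowest in WT cytokine replicate 1 and WT baseline replicate 1. Rpl30 had 109, 142 and 111 FPKM in Adcy10-/- cells with cytokines and 125, 113 and 125 FPKM in baseline medium. In WT cells, Rpl30 had 129, 125 and 127 FPKM with cytokines and 125, 119 and 129 FPKM in baseline medium. Rpl30 passed that limit in Adcy10-/- cells with cytokines, low in replicate 1 and high in replicate 2.

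Ribosomal proteins whose genes carry other names stood at similar levels. Fau, which encodes a fusion with a ubiquitin-like sequence, and Gnb2l1, the small-subunit scaffold also called Rack1, ranged from 2081 to 2619 FPKM and neither passed in any contrast. In WT cells their log2 differences with cytokines were 0.13 for Fau and 0.049 for Gnb2l1. Of 77 mitochondrial ribosomal protein genes, which serve the ribosome of another compartment, 0 passed in Adcy10-/- cells and 1 in WT cells: Mrpl52 rose with cytokines by 0.30 (adjusted p = 0.0214). The median difference of these 77 genes was -0.036 in Adcy10-/- and 0.015 in WT cells.

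Genes that build and serve ribosomes were counted against the share of all genes called, 4.27% in Adcy10-/- and 4.93% in WT cells. For lists of 15 genes or fewer a count of 0 lies near that share. For the 65 biogenesis genes a count of 0 lies below it, and no count was tested against the share. None of 65 ribosome biogenesis genes, 15 genes of RNA polymerase I transcription, 13 elongation factors, 11 chaperones or 8 genes of the p53 and nucleolar stress list passed in either cytokine comparison. Biogenesis genes had a median difference of -0.065 in Adcy10-/- and -0.055 in WT cells, below 0, where the ribosomal proteins stood at -0.003 and 0.083. Of 36 initiation factor genes, 0 passed in Adcy10-/- cells and 1 in WT cells: Eif4a2, a helicase, fell with cytokines by 0.22 (adjusted p = 0.0497). Of 33 mTOR and MYC genes, Rragd, a small GTPase of the mTOR pathway, rose in Adcy10-/- cells by 0.74 (adjusted p = 0.0346) and in WT cells by 0.73 (adjusted p = 0.0363), and Mxd1, an antagonist of MYC, rose in WT cells by 0.86 (adjusted p = 0.0487). With the replicate number in the model, 2 biogenesis genes were lower in Adcy10-/- cells with cytokines, where 10.7% of all genes were called, and in WT cells 6 were lower and 1 higher, where 14.8% were called. No gene of these lists passed between genotypes or in the interaction, as no gene of the table did, all by limma with Benjamini-Hochberg adjustment over 10126 genes.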

How the data were processed

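Each library has a deposited file of FPKM per gene, made by the authors from polyA RNA. The submitters' processing notes name the build mm9 and the tools STAR 2.4.0f1, SAMtools 0.1.19, Cufflinks and HTSeq, whose roles and remaining versions are not given in the sources used here. Each file holds 24488 entries for 23991 names, and entries of a name were summed, which touched no member. FPKM carries no counts, so only the spread between libraries measures error.

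Members and gene lists were chosen with earlier results of these data known. Values were taken as log2(FPKM + 1), which understates changes of low genes, with no further scaling. A gene entered the fit when 3 or more libraries reached 1 FPKM, which left 10126 genes. The model, 4 group means with a variance trend, used limma 3.58.1 (R 4.3.3). Tests are two-sided, with Benjamini-Hochberg adjustment over all 10126 genes and a threshold of 0.05. The fit was also run on simulated data, with independent noise in each library and changes larger than those of any member. That run does not show how the fit performs where libraries of a replicate number share spread, or for smaller differences. Values per library are given for the 3 members of highest, of lowest and of most variable level, the 2 with the largest log2 difference each way per contrast and a panel of known roles (27 genes in all), and for Rpl26 and Rpl30, named after their values were seen. Genes of other lists are named where they passed the threshold. Some genes are counted but not reported by name. Identity between genes and copies was computed on GENCODE M21 transcripts, and start windows are from RefSeq on GRCm38.p6, a build other than that of the files. Tables and figures used Python 3.11.15 with pandas 2.3.3, numpy 2.4.6, biopython 1.88 and matplotlib 3.10.9.

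Replicate numbers were checked for pairing. Residuals of all genes correlated between libraries of the same number and genotype with r from 0.294 to 0.536, and between genotypes with r from 0.0736 to 0.523, where the replicate 2 pair in baseline medium fell under 0.1. The labels do not say what a number shares. By these correlations the numbers were taken to pair libraries for all contrasts except genotype in baseline medium, and the fit with the replicate number as a term is printed where it changed a call. The main fit leaves that term out, so its SEs, intervals and adjusted p-values include the spread that libraries of a number share. With the term, 1086 genes were called in Adcy10-/- and 1502 in WT cells between the media, against 432 and 499 in the main fit. Alternatives were the pseudocount, filter, scaling, variance trend, replicate block, the libraries left out and the merging of pseudogene copies.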

Additional observations from a re-analysis of the deposited data

Results flagged for a closer look

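Between libraries of the same number, 6 members stood lower with cytokines in all 3 pairs of Adcy10-/- libraries and higher in all 3 pairs of WT libraries. Among them the interaction log2 differences were -0.152 for Rpl18, -0.134 for Rpl28, -0.147 for Rps15, -0.118 for Rps2 and -0.148 for Rps21. Such opposite pairs made up 7.06% of the 85 members and 1.63% of the 10126 genes tested. Another 8 members stood lower in Adcy10-/- than in WT in all 3 pairs with cytokines and higher in all 3 pairs in baseline medium, where the replicate numbers were not taken to pair libraries between genotypes. Their interaction log2 differences were -0.107 for Rpl12, -0.152 for Rpl18, -0.122 for Rpl31, -0.13 for Rps10, -0.0861 for Rps19, -0.101 for Rps23, -0.149 for Rps28 and -0.0875 for Rps6. These made up 9.41% of the members and 2.89% of all genes tested. In the limma test of the interaction each of these members had an adjusted p of 1.00, so no difference between genotypes or media was shown, and all of them rest on the same WT cytokine libraries.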

How the results depend on the processing

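Over 21 planned settings and 3 that were added after seeing the data, the count of members past the threshold was 0 in every contrast except with the replicate block. With the replicate block alone, 1 member was called higher with cytokines in WT cells (Rpl24, log2 0.15), and calls over all genes rose to 1086 in Adcy10-/- and 1502 in WT cells, against 432 and 499 without it. With the block and libraries scaled to the members' mean level, 1 member was called lower in Adcy10-/- cells (Rps20, -0.11) and 1 in WT cells (Rpl22l1, -0.22), with 823 and 1438 calls over all genes. The block changed no other call on members and none between genotypes. In the other lists its calls in Adcy10-/- and WT cells were 4 and 3 of 77 mitochondrial ribosomal protein genes, 2 and 7 of 65 biogenesis genes, 4 and 5 of 33 mTOR and MYC genes, 0 and 1 of 36 initiation genes, 1 and 2 of 13 elongation genes, 1 and 3 of 15 polymerase I genes, 0 and 1 of 11 chaperones and 0 and 2 of 8 p53 genes.

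Median member differences depended on scaling. The WT cytokine median was 0.00509 after quantile normalization and 0.00804 with libraries scaled to the members' mean level, with or without the block, and the interaction median was -0.00484 and -0.00267. For genotype with cytokines it was 0.0005 and -0.003, and -0.019 with libraries rescaled to the same total. Scaling to the members' mean level removes a shift shared by the members by construction, and quantile normalization can remove much of one. Medians from these 2 settings therefore cannot show whether the members shifted together. Leaving out 1 library gave medians of 0.0412 to 0.124 for cytokines in WT, -0.0289 to 0.0404 for cytokines in Adcy10-/-, -0.02 to 0.0559 for genotype in baseline medium, -0.104 to -0.0192 for genotype with cytokines and -0.126 to -0.0398 for the interaction, lowest in absolute terms for WT and for genotype with cytokines without WT cytokine replicate 2. The large minus small medians lay between -0.0222 and 0.0138 for genotype in baseline medium and between -0.0121 and 0.0339 for the interaction. Calls over all genes in WT cells were 164 without WT baseline replicate 2, 257 without WT cytokine replicate 1 and 325 without WT cytokine replicate 2. In Adcy10-/- cells they were 202 and 210 without baseline replicates 1 and 3 and 216, 287 and 266 without cytokine replicates 1, 2 and 3. Without the 4 libraries numbered 1 the WT median was 0.132 and 219 genes were called in Adcy10-/- cells. Between genotypes with cytokines, where 0 genes were called, 1 was called without replicate 1 of either genotype with cytokines and 2 without the 4 libraries numbered 1; none was a member.

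Merging pseudogene copies into their genes moved the large minus small difference to -0.36 from -0.19, since Rps27 then holds the level of Rps27rt. It also turned Rps27 to 0.139 for cytokines in WT, -0.0887 for genotype with cytokines and -0.0883 for the interaction. Leaving out 1 library, the interaction of Rps27 lay between -0.0151 and 0.213, and turned to -0.0151 without WT baseline replicate 2 and to -0.0133 without Adcy10-/- cytokine replicate 2, and Rplp0 in baseline medium to 0.038 without Adcy10-/- baseline replicate 3. The causes were not tested. With 3 libraries a group the median SE of a cytokine or genotype difference was 0.064 for members at or above 50 FPKM, and the depth behind FPKM is unknown.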
